A study of Mus musculus with 2 samples.

Results

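The barcodes described here are the droplets of a bone marrow culture in which more than 10% of the unique molecular identifiers (UMIs, each standing for 1 captured RNA molecule) came from the 13 protein genes of the mitochondrial genome. They were chosen by that measured share alone, applied to every deposited barcode of both libraries, and the rule took 3422 of 21428 barcodes. In the library treated with 5ɑ-dihydrotestosterone (DHT) it took 1875 of 10798 barcodes, 17.4% with a 95% exact Clopper-Pearson interval of 16.7 to 18.1%. In the vehicle library it took 1547 of 10630 barcodes, or 14.6% (13.9 to 15.2%). They are called high-mitochondrial barcodes below, and the 8923 DHT and 9083 vehicle barcodes at or below 10% are called the other barcodes of their library.

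Marrow cells of a single wild-type male C57BL/6J mouse, aged 3 months, were grown in medium depleted of hormones. Both cultures received 5 ng/mL M-CSF for 48 h, then 100 ng/mL M-CSF, 30 ng/mL RANKL and 10 ng/mL human TNF for 24 h. DHT, a potent natural androgen, was present at 1 nM throughout in 1 culture, and the other received the same volume of ethanol. Adherent cells, labelled as osteoclast precursors, were lifted with EDTA and a scraper and made into droplet libraries that are primed on poly(A) tails and read near the 3′ end of each RNA. Each group is 1 library, and both carry the same batch label. No test between groups was therefore possible, and the intervals below are 95% exact intervals that cover counting error only, not differences between mice, cultures or libraries.

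Mitochondrial messenger RNAs are made, and most of them polyadenylated, inside the organelle, so the membranes of the mitochondrion hold them apart from cytosolic RNA. A high mitochondrial share is widely used in single-cell work as a sign of a cell whose plasma membrane has leaked, because cytosolic RNA then escapes while mitochondria stay behind, and such barcodes are usually discarded. The same share can also be high in intact cells that are rich in mitochondria, and the osteoclast, the multinucleated bone-resorbing cell that RANKL and M-CSF induce from myeloid precursors, is one such cell. RNA kept in the nucleus, including Malat1 and unspliced transcripts of long genes, is a second pool that a leaking plasma membrane need not release.

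Libraries primed on poly(A) read most RNAs near their 3′ end. The annotated ends of 6 mitochondrial transcripts are printed here because these genes either shared sequence with a neighbouring mitochondrial gene or took a different part of the mitochondrial UMIs in the barcodes described. Each line is the last 30 bases of the transcript, 5′ to 3′, from GENCODE M21 on GRCm38 (mm10), with the stop codon in capitals. For mt-Co3 the capital is the single T that polyadenylation completes to a stop codon.
mt-Nd2: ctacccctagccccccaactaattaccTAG
mt-Atp8: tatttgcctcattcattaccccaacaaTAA
mt-Co3: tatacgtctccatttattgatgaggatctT
mt-Nd4l: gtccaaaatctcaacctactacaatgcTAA
mt-Nd5: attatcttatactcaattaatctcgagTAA
mt-Nd6: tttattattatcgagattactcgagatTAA
On chromosome M these transcripts run from 3914 to 4951 (mt-Nd2), 7766 to 7969 (mt-Atp8), 8607 to 9390 (mt-Co3), 9877 to 10173 (mt-Nd4l) and 11742 to 13565 (mt-Nd5), all on the plus strand. Transcript mt-Nd6 lies at 13552 to 14070 on the minus strand. Each of the 6 is an exon without an intron. The annotated mt-Atp8 shares 43 bases with mt-Atp6, mt-Nd4l shares 7 with mt-Nd4, and mt-Nd5 and mt-Nd6 share 14 bases on opposite strands, and mt-Co3 shares 1 base with mt-Atp6, so the counts of these pairs are uncertain where a read falls in the shared bases. Both mt-Atp8 and mt-Nd4l are known to lie on RNAs that continue into mt-Atp6 and mt-Nd4 and carry their tail after them, so poly(A) priming need not start at the bases printed for them. Where priming starts on the other printed transcripts was not tested.

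The split of mitochondrial UMIs among the 13 genes, which the rule did not use, was close to that of the other barcodes. Subunits of cytochrome c oxidase led in every set of barcodes. In the DHT library mt-Co1 took 18.9% of the mitochondrial UMIs of high-mitochondrial barcodes and 18.6% of those of the other barcodes, and in the vehicle library it took 15.4% and 16.4%. The gene mt-Co3 took 16.9% against 17.2% with DHT and 17.7% against 17.6% with vehicle. Lower parts were taken by mt-Atp8, mt-Nd6, mt-Nd4l, mt-Nd5 and mt-Nd3. On the log2 scale, the share of mt-Atp8 in high-mitochondrial over other barcodes was −0.43 with DHT and −0.26 with vehicle, that of mt-Nd6 was −0.47 and −0.19, and that of mt-Nd4l was −0.29 and −0.24. The complex I subunit mt-Nd5 was at −0.23 and −0.19, and mt-Nd3 at −0.16 and −0.12. In the opposite direction mt-Nd2, also of complex I, was at 0.17 and 0.15. Against shallow other barcodes some signs turned: in barcodes above 50% the log2 ratio was −0.22 and −0.21 for mt-Nd2 and 0.58 and 0.58 for mt-Nd3, and with vehicle 0.30 for mt-Nd4l and 0.12 for mt-Nd6. That of mt-Atp8 was −1.10 and −0.50.

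The mitochondrial share of these barcodes, the value that chose them, was far above the limit for most and close to it for a minority. Its median was 65.5% in the DHT library and 62.0% in the vehicle library, against 2.00% and 2.48% in the other barcodes. In the DHT library 230 barcodes lay above 10% and up to 20%, 411 above 20% and up to 50%, 458 above 50% and up to 70%, and 776 above 70%. The vehicle library held 232, 375, 329 and 611 in the same bands. Both distributions thus had a fall to the bin from 35 to 40% (57 and 51 barcodes) and a second rise, with the fullest 5-point bin from 75 to 80% with DHT (258 barcodes) and from 75 to 85% with vehicle (197 in each of its 5-point bins). Just inside the limit, between 10 and 11%, there were 35 barcodes in each library, with median non-mitochondrial UMIs of 14123 (DHT) and 16052 (vehicle). Just outside, between 9 and 10%, there were 48 and 35 barcodes with medians of 14001 and 22010.

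**Figure D1:**
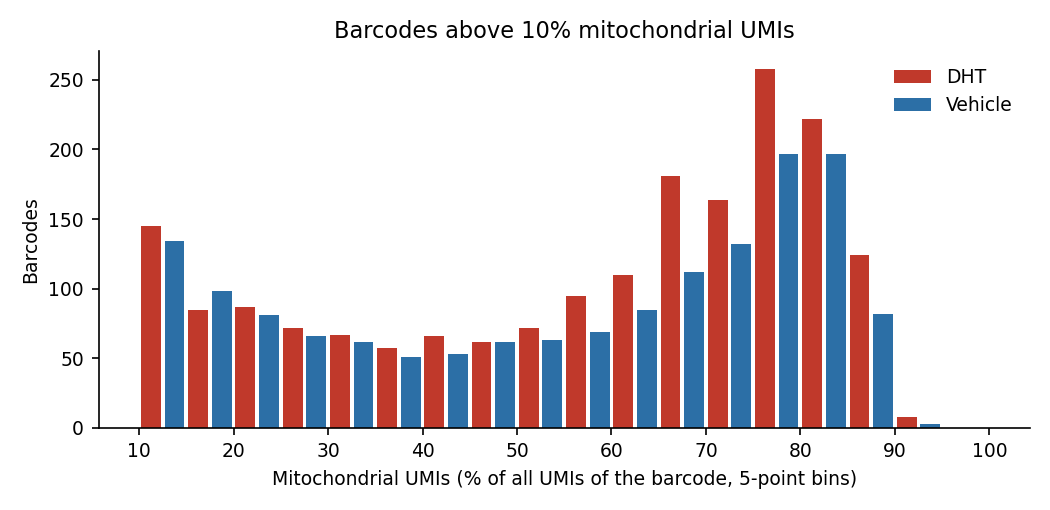
Number of high-mitochondrial barcodes (vertical axis) in 5-point bins of the mitochondrial share of UMIs in percent (horizontal axis), DHT and vehicle libraries. Counts fell from 145 and 134 barcodes in the bin from 10 to 15% and rose again to 258 and 197 in the bin from 75 to 80%.

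Depth is tied to the rule, because the share has the total in its denominator, and is given as a description. High-mitochondrial barcodes held few UMIs of nuclear genes. The median number of non-mitochondrial UMIs was 783 (quartiles 503 and 2566.5) in the DHT library and 1090 (555 and 3994) in the vehicle library, against 21833 and 48582 in the other barcodes. The median number of genes with a UMI was 500 and 703, against 4607 and 6735. Mitochondrial UMIs differed less in number between these sets: the median was 1981 with DHT and 2079 with vehicle in the high-mitochondrial barcodes, 404 and 1290 in the other barcodes, and 1599 and 1693 in other barcodes of osteoclast-like clusters, which held 59917 and 62026.5 non-mitochondrial UMIs. Other barcodes with fewer than 1000 non-mitochondrial UMIs, called the shallow other barcodes below (1320 with DHT, 477 with vehicle), had a median of only 11 and 18 mitochondrial UMIs. Of the high-mitochondrial barcodes, 57.9% and 47.5% had fewer than 1000 non-mitochondrial UMIs. At a given number of those, the rule itself sets which barcodes hold more mitochondrial UMIs.

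Across the bands the non-mitochondrial count dropped while the mitochondrial count stayed in 1 range. From the lowest to the highest band the median of non-mitochondrial UMIs was 10793.5, 3206, 887 and 545.5 in the DHT library and 11683.5, 3876, 1086 and 539 in the vehicle library. The median of mitochondrial UMIs was 1871, 1733, 1499 and 2265 with DHT and 2026, 2097, 1875 and 2220 with vehicle. The high-mitochondrial barcodes held only 2.88% (DHT) and 1.97% (vehicle) of all UMIs of their library, but 32.9% and 22.0% of its mitochondrial UMIs.

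**Figure D2:**
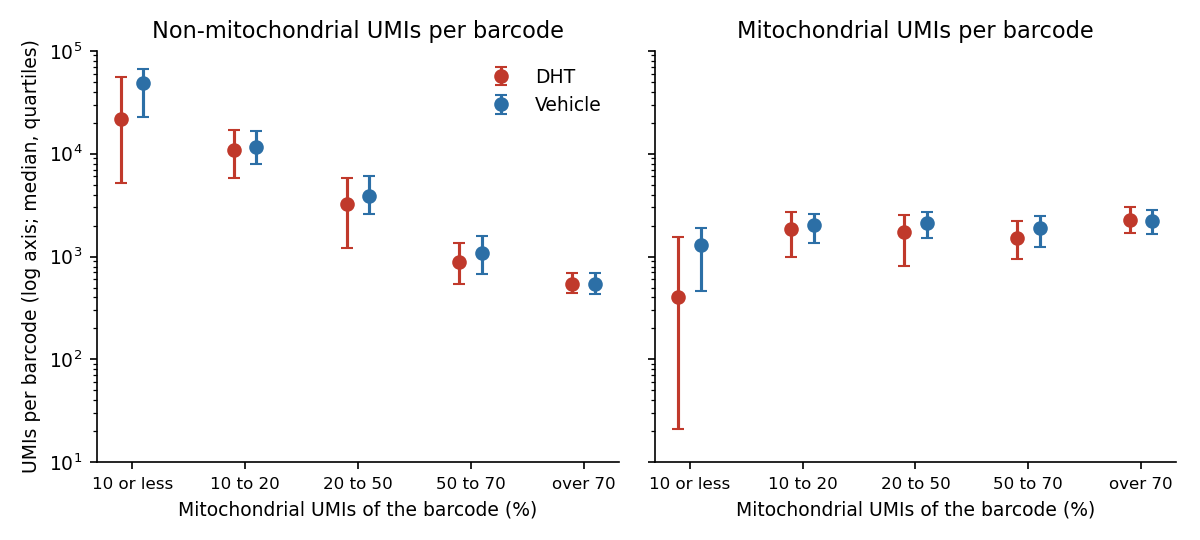
UMIs per barcode (vertical axis, log scale; points are medians, bars the quartiles) from nuclear genes and from mitochondrial genes, in other barcodes and in bands of the mitochondrial share (horizontal axis, percent), for each library. Non-mitochondrial UMIs fell from 10793.5 and 11683.5 in the band from 10 to 20% to 545.5 and 539 above 70%, while mitochondrial UMIs stayed between 1499 and 2265.

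The share of high-mitochondrial barcodes was higher with DHT over all barcodes, but lower in each depth bin from 500 to under 20000 non-mitochondrial UMIs. Of barcodes with fewer than 500 non-mitochondrial UMIs, 98.9% (DHT) and 100% (vehicle) were high-mitochondrial. The fewest UMIs of any deposited barcode were 513 with DHT and 569 with vehicle. That minimum fixed the vehicle share of this bin in advance and bore on that of DHT, so neither is a result. From 500 to under 1000 UMIs the share was 32.3% and 47.2%, from 1000 to under 2000 it was 39.3% and 62.4%, from 2000 to under 5000 it was 32.5% and 41.9%, from 5000 to under 10000 it was 13.2% and 23.7%, and from 10000 to under 20000 it was 10.0% and 16.7%. At 20000 UMIs or more, where 42.8% of DHT and 65.9% of vehicle barcodes lay, it was 0.606% and 0.557%, and DHT was the higher. The DHT library was the shallower library. With its depth bins weighted as in the vehicle library its share would be 10.8%, below the 14.6% of vehicle, and with vehicle weighted as DHT the share would be 23.9%, above the 17.4% of DHT. Both weighted shares include the bin under 500 UMIs. The order of the libraries thus turned with the depth at which they were compared, and the part of depth in the 17.4% and 14.6% cannot be told apart from that of treatment with 1 library per group.

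**Figure D3:**
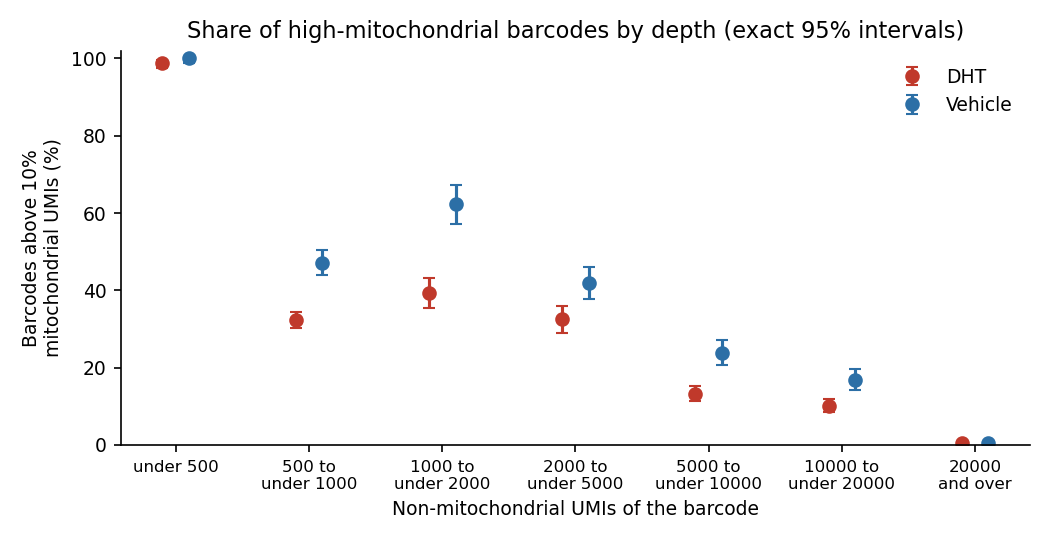
Percent of barcodes above 10% mitochondrial UMIs (vertical axis) in bins of non-mitochondrial UMIs per barcode (horizontal axis), DHT and vehicle libraries, with exact 95% binomial intervals as bars. From 500 to under 20000 UMIs the vehicle share is the higher in each bin (62.4% against 39.3% from 1000 to under 2000 UMIs), and at 20000 or more both are below 1%.

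High-mitochondrial barcodes gathered in 2 of the 16 clusters that were built from all barcodes of both libraries without mitochondrial or interferon-response genes. Cluster 1 held 1326 of the 1875 in the DHT library (70.7%) and 1216 of the 1547 in the vehicle library (78.6%). Within cluster 1, 92.0% of DHT barcodes (90.5 to 93.4%) and 89.7% of vehicle barcodes (88.0 to 91.3%) were above 10%. Cluster 0 held another 20.1% (376 barcodes) and 13.2% (204 barcodes), where 15.6% and 20.5% of all its barcodes were above 10%. Neither cluster was given a cell type name. Both had medians below the 2000 non-mitochondrial UMIs asked for a name, and no marker stood among the 10 leading genes of cluster 1, while cluster 0 had 2 of macrophages and 2 of neutrophils. Still, 6 of the 12 osteoclast markers were over 2-fold in cluster 1, and 6 of the 10 macrophage markers in cluster 0. Plxna4 and Akap6, among the leading genes of cluster 1, were also among those of the osteoclast-like clusters. In all, 92.6% of the high-mitochondrial barcodes with DHT and 94.9% with vehicle lay in unnamed clusters. The concentration in cluster 1 was present at matched depth: from 1000 to under 2000 non-mitochondrial UMIs 98.6% of its barcodes were high-mitochondrial in each library, and from 10000 to under 20000 UMIs 78.1% and 78.9% were.

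Clusters named from lineage markers held few high-mitochondrial barcodes. Naming asked for a minimum of non-mitochondrial UMIs, which is tied to the rule, so these shares are a description. All named classes together held 139 of 5988 (2.32%, 1.95 to 2.74%) with DHT and 79 of 6258 (1.26%, 1.00 to 1.57%) with vehicle. Osteoclast-like clusters held 18 of 1651 (1.09%) with DHT and 26 of 3180 (0.818%) with vehicle. The share in neutrophil-like clusters was 1.33% (27 of 2025) and 1.76% (21 of 1195), and in monocyte-like clusters 2.83% (18 of 637) and 1.70% (9 of 528). Macrophage-like clusters held 40 of 883 with DHT (4.53%, 3.26 to 6.12%) and 10 of 851 with vehicle (1.18%, 0.565 to 2.15%). B cell-like clusters held 24 of 369 (6.50%) and 7 of 124 (5.65%), and conventional dendritic cell-like clusters 7 of 166 (4.22%) and 5 of 211 (2.37%). In the cluster resembling granulocyte-monocyte progenitors 3 of 244 barcodes (1.23%) were high-mitochondrial with DHT and 0 of 162 with vehicle, which allows a share of up to 2.25%. A stromal-like cluster held only 2 of 13 and 1 of 7.

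Marker lists were then summed over the high-mitochondrial barcodes as percent of non-mitochondrial UMIs, to see which lineages their nuclear RNA carried. The osteoclast list, which includes the tartrate-resistant phosphatase Acp5 and the collagen-degrading protease Ctsk, took 0.175% with DHT and 0.194% with vehicle. The other barcodes gave 0.183% and 0.186%, those of osteoclast-like clusters 0.370% and 0.302%, and those of B cell-like clusters, which should lack these genes, 0.0319% and 0.0375%. The osteoclast list in high-mitochondrial barcodes was thus several times the level of B cell-like barcodes and below that of osteoclast-like ones. Single members moved apart: the CPM of Acp5 (UMIs scaled to 1000000 non-mitochondrial UMIs) was 91.5 against 269 in other barcodes with DHT and 123 against 304 with vehicle, and that of Ctsk was 106 against 205 and 159 against 256. Tnfrsf11a, the receptor of RANKL, went the other way, with 383.6 against 206 CPM and 560.9 against 257 CPM.

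Neutrophil markers, led by the calprotectin genes S100a8 and S100a9, took 2.02% of the non-mitochondrial UMIs of high-mitochondrial barcodes with DHT and 1.16% with vehicle, below the 4.11% and 1.36% of other barcodes. The level depended on the cluster. It was 0.440% and 0.174% in the high-mitochondrial barcodes of cluster 1 and 6.10% and 4.59% in those outside clusters 0 and 1. Neutrophil-like other barcodes were at 28.1% and 25.4%, and osteoclast-like ones at 0.0859% and 0.0365%. The markers of granulocyte-monocyte progenitors, which make the granule proteases Elane and Prtn3, were low: 0.0409% against 0.145% with DHT and 0.00864% against 0.0661% with vehicle. Macrophage markers took 0.0757% against 0.0679% and 0.0409% against 0.0601%, and monocyte markers 0.0602% against 0.104% and 0.0228% against 0.0506%. The B cell list took more in the high-mitochondrial barcodes of both libraries, 0.0387% against 0.0130% and 0.00742% against 0.00280%. It stood at 0.00272% and 0.0012% in cluster 1 and at 0.134% and 0.0290% outside clusters 0 and 1, where the B cell-like clusters lie.

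RNA of red cells and of lymphocytes other than B cells was nearly absent. The erythroid list summed to 7 UMIs with DHT and 2 with vehicle over all high-mitochondrial barcodes, with 7 and 8 of its 9 genes at 0, among them every globin gene of the list. In the other barcodes the list summed to 165 and 211 UMIs, with 3 genes at 0 in each library, so low erythroid levels were common to both sets. T cell markers summed to 6 and 1 UMIs and NK cell markers to 2 and 8. The label osteoclast precursors was therefore checked against defining markers with a mixed outcome: Acp5, Ctsk and Tnfrsf11a were present in these barcodes, together with neutrophil markers. The summed osteoclast list, not each of its genes, stood between the levels of osteoclast-like and B cell-like clusters.

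To compare barcodes at equal depth, each was thinned to 500 non-mitochondrial UMIs, which left 1416 (DHT) and 1238 (vehicle) high-mitochondrial barcodes and left out 459 and 309 shallower ones. Any osteoclast marker was then seen in 53.2% and 54.4% of them, against 46.4% and 45.7% of other barcodes, 70.9% and 64.3% of osteoclast-like and 15.1% and 11.97% of B cell-like other barcodes. Any neutrophil marker was seen in 89.8% and 69.2%, against 66.6% and 36.1% of all other barcodes, and 33.7% and 16.9% of osteoclast-like ones. Ctsk had a UMI in 7.42% and 7.67% of thinned high-mitochondrial barcodes (17.2% and 20.9% before thinning), and in 0.90% and 0.94% of neutrophil-like ones, which should lack it. S100a8 had a UMI in 66.1% and 39.7% after thinning (93.8% and 76.3% before), in 14.2% and 5.99% of osteoclast-like and 20.6% and 11.1% of B cell-like other barcodes, and in 90.2% and 80.1% of the shallow other barcodes. The macrophage complement gene C1qa was seen in 2.90% and 0.89%, and the B cell receptor gene Cd79a in 1.20% and 0.24% against 63.8% and 70.1% of B cell-like barcodes. A neutrophil marker thus occurred in more of the high-mitochondrial barcodes than in osteoclast-like ones at the same depth, although the summed neutrophil share was below that of the other barcodes as a whole. Free RNA in the droplets can add such UMIs, and its part was not tested.

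The nuclear RNA of high-mitochondrial barcodes was made up differently from that of the other barcodes. Malat1, a long noncoding RNA kept in the nucleus, took 1.84% of non-mitochondrial UMIs with DHT and 1.90% with vehicle, against 0.463% and 0.407% in other barcodes and 0.350% and 0.361% in shallow other barcodes. After thinning to 500 UMIs it had a UMI in 94.8% and 96.8% of high-mitochondrial barcodes and in 77.1% and 75.3% of others. Neat1, the nuclear RNA that builds paraspeckles, was at 289 against 103 CPM with DHT and 304 against 110 CPM with vehicle. Gm42418, a locus that overlaps ribosomal RNA sequence, took 18.0% and 14.1% against 3.33% and 2.75%, but the shallow other barcodes were also raised, at 14.0% and 7.59%, and within cluster 1 it took 21.5% and 16.0% of high-mitochondrial against 22.1% and 15.7% of other barcodes. Malat1 within cluster 1 took 2.17% and 2.13% against 1.03% and 0.978%. Neither Malat1 nor long genes were particular to high mitochondrial shares: B cell-like barcodes at or below 10% gave 1.78% and 1.99% for Malat1 and 18.9% and 16.5% for genes over 100 kb. Malat1 differed between high-mitochondrial and other barcodes of the same cluster, where Gm42418 was nearly level. Those other barcodes of cluster 1 were few, 115 with DHT and 139 with vehicle, and far deeper. Their median was 19715 and 23086 non-mitochondrial UMIs, against 899 and 1361.5 in its high-mitochondrial barcodes.

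Transcripts of long genes followed the same direction as Malat1. Genes whose body spans over 100 kb took 18.7% of non-mitochondrial UMIs with DHT and 21.1% with vehicle, against 9.09% and 8.79% in other barcodes and 8.15% and 8.82% in shallow other barcodes. Genes with a body under 10 kb took 41.4% and 36.7% against 50.8% and 50.7%. Per barcode, the median share of long genes was 12.5% and 15.9% against 8.85% and 8.81%. Within cluster 1 long genes took 19.7% and 23.1% in high-mitochondrial against 14.1% and 17.0% in other barcodes when UMIs were summed, but the medians per barcode were closer, 13.9% against 13.04% with DHT and 17.6% against 15.9% with vehicle. The same limits of depth and number within cluster 1 apply here. Whether introns were counted is not given in the sources used here, so the part of unspliced RNA in these values was not tested.

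The share was not in step with the mitochondrial share across the bands. From the lowest band to the highest, long genes took 17.4%, 22.9%, 17.6% and 12.8% with DHT and 18.9%, 26.1%, 21.4% and 14.4% with vehicle. Malat1 took 1.47%, 2.34%, 2.33% and 1.60% with DHT and 1.48%, 2.45%, 2.94% and 1.55% with vehicle. Summed over barcodes, ribosomal protein genes were lowest from 20 to 50% and highest above 70%, at 4.25%, 3.77%, 6.55% and 8.66% with DHT and 5.70%, 3.41%, 6.07% and 10.3% with vehicle. Per barcode their median was 3.48%, 3.86%, 7.46% and 9.09% with DHT, lowest from 10 to 20%, and 3.90%, 3.42%, 6.76% and 10.8% with vehicle. In both libraries the share of long genes was thus highest from 20 to 50% and lowest above 70%, where that of ribosomal protein genes was highest. The barcodes above 70% are also the shallowest, and the part of depth in this was not tested.

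**Figure D4:**
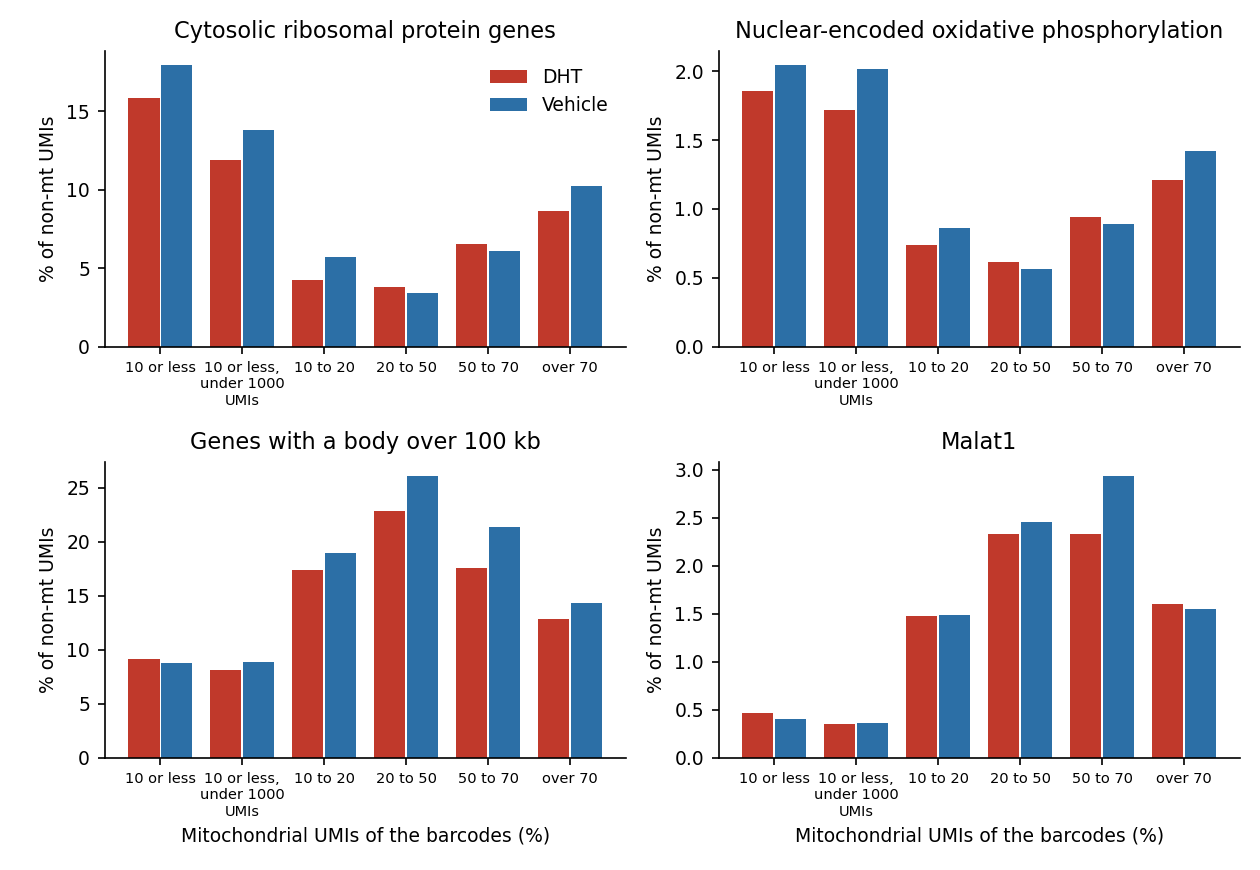
Percent of non-mitochondrial UMIs (vertical axes) from ribosomal protein genes, nuclear-encoded oxidative phosphorylation genes, genes over 100 kb and Malat1, in other barcodes, shallow other barcodes and the bands of the mitochondrial share (horizontal axes), for each library. Malat1 and long genes peak between 20 and 70% in both libraries, where ribosomal protein genes are below their level in other barcodes (15.9% with DHT and 18.0% with vehicle).

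Gene by gene, the high-mitochondrial and other barcodes of each library were compared by CPM, and a gene was called at a difference of 1.5-fold or more if it reached 20 CPM in either set. With DHT 2231 of 7381 genes were called higher, the 30.2% that serves as background for the lists, and 1769 were called lower, or 24%. With vehicle 2764 of 7320 genes were called higher (37.8%) and 1743 lower (23.8%). Of the genes called higher with DHT 93.1% (2076) were called higher with vehicle too, which is 75.1% of the vehicle calls. Of those called lower 1547 were in common, 87.5% and 88.8% of each list, and 0 genes were called in opposite directions. Both libraries come from the same mouse and protocol. The median log2 ratio of all genes tested was 0.12 with DHT and 0.25 with vehicle.

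The balance of these calls depends on what the counts are scaled to. Higher genes made up 55.8% (DHT) and 61.3% (vehicle) of the calls here, but 24.9% and 26.8% with TMM factors, 27.6% and 29.2% with medians of ratios, and 6.59% and 20.5% when the mitochondrial UMIs were kept in the total. These scalings moved the median of all genes to −0.33 and −0.38, −0.29 and −0.33, and −0.73 and −0.51. Differences are best read relative to that median.

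The genes with the largest excess in both libraries held genes of a wide range of functions. Taco1, which encodes a translational activator of the mitochondrial mt-Co1 message, was at 2731 CPM in high-mitochondrial and 129 CPM in other barcodes with DHT, a ratio of 21.1 (20.7 to 21.5), and at 3057 against 94.2 CPM with vehicle. Cdk8, a kinase of the Mediator complex, was at 5729 against 592 CPM and 3858 against 407 CPM. Camk1d, a calcium-dependent kinase gene, was at 8251 against 1610 CPM and 9059 against 1285 CPM. Slc17a9, a vesicular nucleotide transporter, was at 96.8 against 9.79 CPM and 75.5 against 8.85 CPM, and Zdhhc1, a palmitoyltransferase, at 42.5 against 4.87 CPM and 35.9 against 5.72 CPM. Among genes with very long bodies, Macrod2, an ADP-ribose hydrolase gene, was at 83.8 against 13.8 CPM and 86.1 against 19.6 CPM, Ntm, a neural adhesion gene, at 22.2 against 1.90 CPM and 21.6 against 1.70 CPM, and Lrp1b, a lipoprotein receptor-related gene, at 28.2 against 5.47 CPM and 26.6 against 5.22 CPM. Col1a1, the collagen gene of stromal cells, was at 44.0 against 9.51 CPM and 21.9 against 3.07 CPM, but with vehicle few barcodes held most of its UMIs. Spaca6 and Pde1c were also among the 12.

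Some of these genes stayed apart at matched clusters and depth and others did not. Against other barcodes reweighted to the same classes and depth bins, Taco1 had a log2 ratio of 1.68 with DHT and 1.91 with vehicle, Ntm of 1.94 and 3.38, Zdhhc1 of 2.08 and 1.83, Macrod2 of 1.75 and 1.17 and Slc17a9 of 1.40 and 1.01. Neat1 was at 1.21 and 1.06 and Malat1 at 0.65 and 1.30. In contrast Cdk8 was at −0.01 and 0.01, Camk1d at 0.46 and 0.43, Pde1c at 0.18 and −0.36, and Gm42418 at −0.29 and −0.76. Lrp1b (1.14 and −1.07), Col1a1 (1.17 and −2.94) and Spaca6 (−0.08 and 1.53) differed in sign between the libraries. For Col1a1 the high-mitochondrial level itself was lower there, 21.9 CPM with DHT and 2.03 CPM with vehicle, because barcodes without a counterpart in class and depth were left out. The comparison covered 1648 of 1875 and 1234 of 1547 high-mitochondrial barcodes. In cluster 1 it rests on few other barcodes: from 500 to under 1000 UMIs there were 494 high-mitochondrial barcodes of 502 with DHT and 353 of 363 with vehicle, and from 1000 to under 2000 UMIs 216 of 219 and 215 of 218. With these limits 1567 genes were higher and 673 lower of 7196 with DHT, and 2461 and 700 of 7173 with vehicle. Of the genes called higher 1026 and 1873 had also been called so without reweighting, and of those called lower 347 and 381 had. Taco1 and Cdk8 are among the 10 leading genes of cluster 1, so matching on classes is not independent of their levels. Reweighted to depth bins alone, Cdk8 was at 1.93 and 1.92, Camk1d at 1.34 and 2.02, Pde1c at 1.30 and 1.18 and Gm42418 at 1.26 and 1.40.

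Of the 12 genes with the largest deficit, 8 were histone genes of the replication-dependent clusters and 3 were genes of granulocyte progenitors. The linker histone Hist1h1b was at 47.2 CPM in high-mitochondrial and 318.5 CPM in other barcodes with DHT and at 57.2 against 362 CPM with vehicle. Hist1h2ap, an H2A gene, was at 28.2 against 270 CPM and 32.2 against 234 CPM, and the H2B gene Hist1h2bj at 3.95 against 35.7 CPM and 4.49 against 35.8 CPM. The histone genes are near-identical copies of each other, so the split of reads among them is uncertain. The proteases Prtn3 and Elane and the progenitor marker Ms4a3 were at 75.4 against 452 CPM, 68.4 against 380 CPM and 16.5 against 78.8 CPM with DHT, and at 20.3 against 206 CPM, 21.2 against 181 CPM and 5.57 against 34.7 CPM with vehicle. The twelfth gene was Dynlt1f, a dynein light chain gene. Against other barcodes reweighted to the same classes and depth bins most of this deficit was gone or smaller. The log2 ratio was −0.17 and −0.09 for Elane (from −2.48 and −3.09), −0.64 and −0.04 for Prtn3, −0.26 and −0.85 for Hist1h1b and −0.47 and −0.86 for Hist1h2ap, and Hist1h2ab was at −0.40 with DHT and 0.34 with vehicle. Hist1h2bj (−0.46 and −1.51) and Ms4a3 (−0.26 and −1.46) stayed past 1.5-fold with vehicle alone. Reweighted to depth bins without classes, the log2 ratio was −0.97 and −1.47 for Elane and −1.44 and −1.65 for Prtn3. It was −1.12 and −1.28 for Hist1h1b and −1.55 and −1.41 for Hist1h2ap. Other genes of S phase did not share the size of the histone deficit: of 30 measured, 2 were higher and 6 lower with DHT (median log2 ratio −0.32) and 2 higher and 3 lower with vehicle (−0.13). Of 30 genes of G2 and M phase, 1 was higher and 10 lower with DHT (−0.32) and 5 higher and 6 lower with vehicle (−0.15). Reweighting to depth bins alone turned both lists. Of the S phase genes 13 were then higher and 1 lower with DHT (0.50), and 10 and 0 with vehicle (0.43). For G2 and M phase the counts were 18 and 2 (0.73) and 17 and 1 (0.72). With classes and depth bins the medians were 0.07 and 0.06 for S phase and 0.18 and 0.16 for G2 and M phase.

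The gene lists that stood furthest from the median of all genes encode short, abundant messages of the cytosol and mitochondrion. All 79 cytosolic ribosomal protein genes with DHT and 78 of 79 with vehicle were lower, with a median log2 ratio of −1.88 and −1.83. Rps2, of the small subunit, was at 486 against 3085 CPM with DHT and 647.7 against 3740 CPM with vehicle, and Rpl10, of the large subunit, at 161 against 1098 CPM and 223 against 1201 CPM. Per barcode the ribosomal protein share had a median of 7.55% and 7.14% in high-mitochondrial, 12.7% and 16.5% in other and 11.4% and 13.9% in shallow other barcodes. When each barcode's own CPM was averaged, so that deep barcodes weigh no more than shallow ones, the median over the list was −0.76 and −1.04. After reweighting to classes and depth bins it was −0.54 and −0.58, with 31 and 39 genes lower. With depth bins alone it was −1.10 and −1.17, with 74 and 76 of 80 genes lower.

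Nuclear genes whose products work inside mitochondria were lower, too, although the barcodes were chosen for a high share of mitochondrial transcripts. Of 55 nuclear-encoded subunits of oxidative phosphorylation, 52 were lower and 0 higher in each library, with median log2 ratios of −1.33 and −1.37. The ATP synthase subunit Atp5d was at 103 against 380 CPM with DHT and 127 against 465 CPM with vehicle, and Cox5b, of cytochrome c oxidase, at 116 against 419 CPM and 126.5 against 479 CPM. At the other end of the list the complex I subunit Ndufs1 was at 67.3 against 72.3 CPM and 90.4 against 76.0 CPM. These subunits took 0.759% and 0.806% of non-mitochondrial UMIs against 1.86% and 2.05% in other and 1.72% and 2.02% in shallow other barcodes. Neutrophil-like other barcodes were as low or lower: per barcode, the median share of oxidative phosphorylation was 0.678% and 0.789% there against 0.962% and 0.914% in high-mitochondrial barcodes, and that of ribosomal proteins 2.66% and 3.45% against 7.55% and 7.14%. Reweighting to classes and depth bins left 11 and 10 of the 55 oxidative phosphorylation genes lower, with medians of −0.39 and −0.41. With depth bins alone 35 and 43 stayed lower, with medians of −0.73 and −0.76. Of 78 mitochondrial ribosomal protein genes 68 were lower and 0 higher in each library (medians −1.20 and −1.30), and after reweighting the medians were −0.35 and −0.34.

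Genes of mitochondrial import, upkeep and mitophagy were divided. Of 32 measured, 2 were higher and 14 lower with DHT (median −0.36), and 5 higher and 15 lower with vehicle (−0.51). The matrix co-chaperone Hspe1 was at 193 against 604 CPM with DHT and 246 against 711 CPM with vehicle, and the outer membrane channel Vdac3 at 51.7 against 137 CPM and 57.2 against 147 CPM. Nrf1, a transcription factor for nuclear genes of mitochondrial function, was at 191.5 against 83.6 CPM and 219.6 against 79.0 CPM. The fission GTPase Dnm1l was at 122 against 78.5 CPM and 141 against 80.1 CPM.

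The nuclear-retained long noncoding RNAs were the list with the highest median. With DHT 6 of 8 measured were higher and 0 lower (median 1.25), and with vehicle 5 of 7 were higher and 0 lower (1.63). Pvt1, a noncoding RNA next to the Myc gene, was at 396 against 124 CPM and 527 against 159 CPM. The median stayed above 0 under every scaling tried, from 0.57 with the mitochondrial UMIs in the total to 1.34 without Gm42418, Malat1 and ribosomal proteins with DHT, and from 0.98 to 1.63 with vehicle. After reweighting it was 0.80 and 1.06.

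Without reweighting, lists of cell death lay on both sides of the median of all genes, 0.12 with DHT and 0.25 with vehicle. Pro-apoptotic genes counted 2 higher and 8 lower of 21 with DHT (median −0.23) and 4 higher and 9 lower with vehicle (−0.29). In that list Cycs, which encodes cytochrome c, was at 108 against 361 CPM and 129 against 387 CPM, while Apaf1, whose product cytochrome c activates, was at 97.4 against 46.9 CPM and 79.1 against 36.5 CPM. Anti-apoptotic genes counted 6 higher and 4 lower of 12 with DHT (0.50) and 6 higher and 3 lower of 11 with vehicle (0.74). Bcl2, which blocks release of cytochrome c, was at 42.1 against 19.8 CPM and 34.7 against 14.96 CPM. The median of the anti-apoptotic list with DHT turned to −0.26 with mitochondrial UMIs in the total and to −0.16 for the mean of barcode CPM. Reweighted to depth bins alone, 3 of 12 anti-apoptotic genes were higher and 5 lower in each library. Of 14 p53 targets 4 were higher and 3 lower with DHT (−0.05) and 4 higher and 4 lower with vehicle (0.01). The ubiquitin ligase Mdm2 was at 561 against 215 CPM and 576.5 against 241 CPM, and Phlda3 at 5.45 against 13.9 CPM and 6.11 against 16.6 CPM. Of 14 genes of necroptosis, pyroptosis and ferroptosis 3 were higher and 4 lower (0.00) with DHT and 5 higher and 6 lower with vehicle (0.41), the latter median being negative under TMM factors (−0.13) and averaged barcode CPM (−0.42). Reweighted to classes and depth bins, the pro- and anti-apoptotic medians were −0.08 and 0.19, and −0.06 and 0.35. Those of p53 targets and of the last list were −0.02 and 0.05, and 0.04 and 0.23. With depth bins alone, in the same order, the medians were −0.14 and −0.04, −0.17 and 0.05, 0.23 and 0.25, and −0.35 and −0.47.

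Without reweighting, lists of genes that respond to tissue dissociation or stress had medians below that of all genes. Of 21 immediate early and dissociation-stress genes 1 was higher and 4 lower with DHT (−0.24) and 2 higher and 6 lower with vehicle (−0.32). Genes of the integrated stress and unfolded protein response counted 1 higher and 8 lower of 22 with DHT (−0.49) and 1 higher and 10 lower of 21 with vehicle (−0.56). Targets of the antioxidant factor NRF2 with ferritin genes counted 0 higher and 7 lower of 19 (−0.48) and 1 higher and 11 lower of 19 (−0.67). The ferritin light chain Ftl1 in that list was at 3014 against 8543 CPM with DHT and 3073 against 11864 CPM with vehicle. Genes of glycolysis and hypoxia counted 1 higher and 9 lower of 19 (−0.36) and 2 higher and 8 lower of 19 (−0.12), and Gapdh was at 401 against 1853 CPM and 434 against 2006 CPM. Reweighted to classes and depth bins, the medians of these lists in the order given were −0.22 and −0.01, −0.08 and −0.17, −0.07 and −0.16, and −0.21 and 0.15. With depth bins alone they were −0.41 and −0.67, −0.65 and −0.51, −0.56 and −0.79, and −0.76 and −0.90.

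Without reweighting, genes of the osteoclast and of the lysosome spread in both directions. Of 36 genes of osteoclast differentiation and resorption 10 were higher and 6 lower with DHT (median 0.04), and of 35 with vehicle 10 were higher and 5 lower (0.25). These medians turned negative under TMM factors (−0.36 and −0.31). Reweighted to classes and depth bins, 12 osteoclast genes were higher and 1 lower of 36 with DHT (median 0.34). With vehicle 16 were higher and 1 lower of 35 (0.46). With depth bins alone the counts were 16 higher and 4 lower (0.50) and 17 higher and 5 lower (0.49). Mitf, a transcription factor of the lineage with a long gene body, was at 876 against 338 CPM with DHT and 1160 against 419 CPM with vehicle. Of 32 genes of lysosome and V-ATPase 5 were higher and 7 lower (−0.10) and 4 higher and 11 lower (−0.33). There the proton pump subunit Atp6v0c was at 573 against 1360 CPM and 628 against 1687 CPM. Abundant cytoskeletal and myeloid messages were lower: Tmsb4x (thymosin) was at 2937 against 8151 CPM with DHT, Actb at 4161 against 6791 CPM, and the lysozyme gene Lyz2 at 3235 against 8718 CPM.

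The DHT and vehicle libraries were then compared within the high-mitochondrial barcodes, whose non-mitochondrial UMIs summed to 5320560 with DHT and 5564305 with vehicle. Genes that respond to interferon were higher with DHT in these barcodes. Of 7089 genes tested 332 were higher with DHT (4.68%) and 158 lower (2.23%), with a median log2 ratio of −0.12 over all genes tested. In the other barcodes 370 of 6818 genes were higher (5.43%) and 12 lower (0.176%), with a median of −0.02. Higher genes made up 67.8% of the calls in high-mitochondrial barcodes, but 83.5% with TMM factors, 78.6% with medians of ratios, 40.9% with the mitochondrial UMIs in the total and 38.8% for the mean of barcode CPM. In the high-mitochondrial barcodes of cluster 1 alone, 176 of 6889 genes were higher (2.55%) and 195 lower (2.83%).

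Of 58 type I interferon-stimulated genes measured, 53 were higher with DHT in the high-mitochondrial barcodes and 0 lower, with a median log2 ratio of 2.05. In the other barcodes 54 of 58 were higher with a median of 2.08, and in the high-mitochondrial barcodes of cluster 1 it was 51 of 56 with a median of 1.83. The list as a whole took 0.366% of non-mitochondrial UMIs with DHT and 0.150% with vehicle, close to the 0.362% and 0.156% of other barcodes. Against other barcodes reweighted to depth bins alone, 3 were higher and 25 lower of 58 with DHT (−0.48). With vehicle 7 were higher and 23 lower of 55 (−0.39). Reweighted to classes and depth bins, 1 was higher and 15 lower of 58 with DHT (−0.28), and 26 higher and 3 lower of 45 with vehicle (0.64). The interferon list is the subject of the series' title, and these members were chosen with that known. The 5 genes of the list that were not called were Ifi207 (ratio 1.06), Tor3a (1.19), Trim25 (1.25), Samhd1 (1.46) and Ube2l6 (1.47).

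Single interferon-response genes gave ratios of up to more than 20. Isg15, a ubiquitin-like protein attached to other proteins, had 332 UMIs with DHT and 13 with vehicle, that is 62.4 against 2.34 CPM, a ratio of 26.7 (15.4 to 50.7). Among barcodes above 50% mitochondrial UMIs Isg15 had 62 against 0 UMIs, and after thinning to 500 UMIs it was seen in 3.81% of DHT and 0 of 1238 vehicle barcodes, where the other barcodes gave 6.32% and 0.57%. The chemokine gene Cxcl10 was at 30.4 against 1.08 CPM (28.2, 12.7 to 78.1), and Ccl5, another chemokine gene, at 72.4 against 4.13 CPM, though in cluster 1 Ccl5 was at only 10.4 against 4.25 CPM. Irf7, a transcription factor that amplifies the interferon response, was at 45.1 against 4.31 CPM (10.5, 6.86 to 16.6). Slfn4, a myeloid Schlafen gene, was at 97.4 against 7.73 CPM (12.6, 9.22 to 17.6), Oasl2 at 59.6 against 5.03 CPM (11.8), and Rtp4, a receptor transporter gene, at 64.8 against 7.01 CPM (9.25). Ifit3 had 46 against 1 UMIs, a ratio with a counting interval of 8.21 to 1940, and Ifit1 had 82 against 0, at least 28.6-fold higher with 3 counts allowed for the vehicle library. Both belong to a family of antiviral proteins that interferon induces. Genes with a higher base level gave smaller ratios: the membrane protein gene Bst2 was at 261 against 110 CPM and B2m, the light chain of MHC class I, at 1202 against 613 CPM (1.96).

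**Figure D5:**
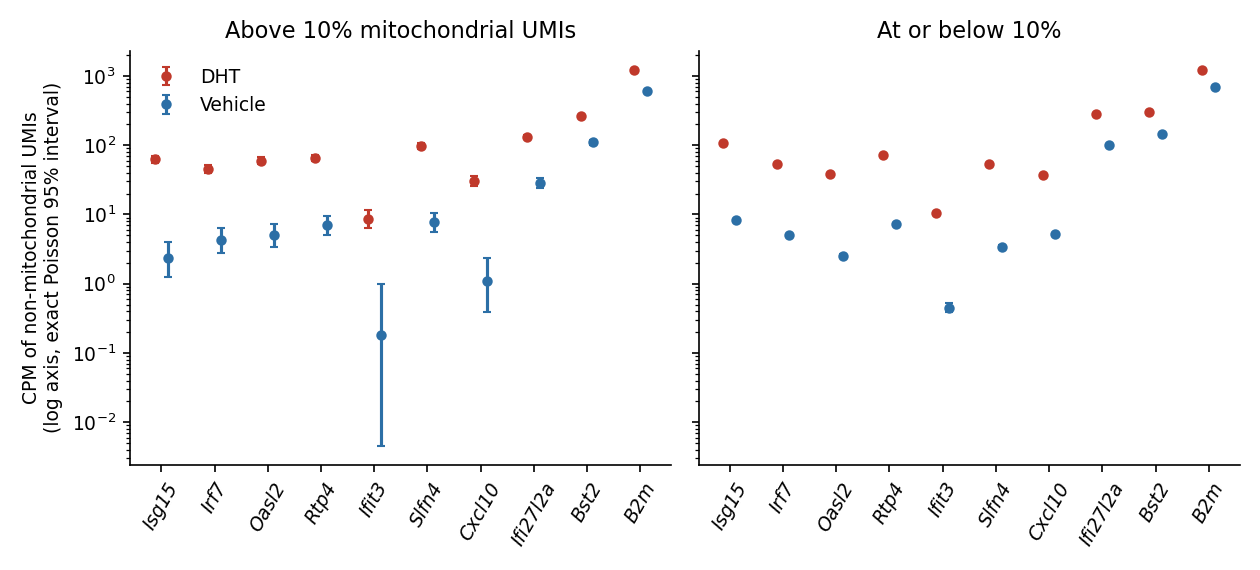
CPM over non-mitochondrial UMIs (log axis) of 10 interferon-response genes in the DHT and vehicle libraries, for high-mitochondrial barcodes and other barcodes, with exact 95% Poisson intervals as bars. The DHT value is the higher for each gene in both sets of barcodes, from 62.4 against 2.34 CPM for Isg15 to 1202 against 613 CPM for B2m in high-mitochondrial barcodes.

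Other lists with a higher level with DHT were inflammatory ones and myeloid markers. Genes induced by interferon gamma, the GTPases and antigen-processing genes, were higher in 19 of 25 with a median of 1.00 (18 of 25 and 1.05 in other barcodes, 18 of 25 and 0.94 in cluster 1). Of 27 NF-kB and cytokine genes 13 were higher (0.55), as were 13 of 27 in other barcodes (0.48) and 11 of 27 in cluster 1 (0.24). Of 21 immediate early genes 5 were higher (0.34), and of 21 genes of the integrated stress response 3 were (0.38). The monocyte chemokine gene Ccl7 was at 31.2 against 3.41 CPM. Neutrophil markers were higher in 12 of 12 (median 0.99; 12 of 12 and 1.65 in other barcodes, 11 of 12 and 1.37 in cluster 1), with S100a8 at 7108 against 3880 CPM, and at 1400 against 561 CPM in cluster 1. Macrophage markers were higher in 7 of 9 (1.10), with C1qa at 72.6 against 17.3 CPM, and monocyte markers in 5 of 6 (1.48). The DHT library held more neutrophil-like barcodes, 2025 against 1195, and fewer osteoclast-like ones, 1651 against 3180, and the part of this make-up in the marker levels of the high-mitochondrial barcodes was not tested.

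Among the 12 genes with the largest excess with DHT, 3 are known from lymphocytes or lie outside myeloid programmes. Ikzf3, a transcription factor of B cells, was at 30.8 against 3.23 CPM, Cd79b, of the B cell receptor, at 30.4 against 3.41 CPM, and Csmd1, a complement-regulating gene with a long body, at 167 against 17.8 CPM. In the high-mitochondrial barcodes of cluster 1 the levels were 1.37 against 0.944 CPM for Ikzf3, 3.57 against 0.236 CPM for Cd79b and 3.02 against 1.65 CPM for Csmd1. Most of their UMIs thus lay outside cluster 1. Csmd1 is also among the 10 leading genes of the stromal-like cluster, which held 2 (DHT) and 1 (vehicle) high-mitochondrial barcodes. The remaining gene of the 12, Ms4a4c, is a membrane protein gene that responds to interferon.

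Genes lower with DHT in the high-mitochondrial barcodes were fewer in the main setting and their ratios nearer to 1. Which direction held more genes depended on the setting. In barcodes above 50% 921 were lower and 467 higher, and by the mean of barcode CPM 616 and 391. With TMM factors 83 were lower and 420 higher. Ltbp1, which binds latent TGF-beta in the matrix, was at 47.0 CPM with DHT and 140 CPM with vehicle, a ratio of 0.335 (0.289 to 0.386), where the other barcodes gave 42.3 and 60.8 CPM. It is among the 10 leading genes of an osteoclast-like cluster. That class held 1651 DHT and 3180 vehicle barcodes, and the part of this make-up in the ratios was not tested. Ank, a transporter that exports pyrophosphate, was at 112 against 251 CPM, and Plcb4, a phospholipase gene, at 84.0 against 175 CPM. Cd109, a coreceptor that restrains TGF-beta signals, was at 22.2 against 51.2 CPM, the formin gene Fhod3 at 12.4 against 29.5 CPM, and the growth hormone receptor gene Ghr at 44.5 against 86.6 CPM. Klf8, Tmem26, Tacc2, Pmepa1 and Telo2 were also among the 12, with ratios between 0.491 and 0.504.

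Most genes of the osteoclast programme differed by less than 1.5-fold between the libraries, but a larger part was called than of all genes. Of 36 genes of osteoclast differentiation 4 were higher and 6 lower, with a median log2 ratio of −0.29 beside −0.12 over all genes tested, and in the other barcodes 3 of 36 were higher and 0 lower (−0.16). Over all genes tested in high-mitochondrial barcodes, 4.68% were higher and 2.23% lower. List members were measured from 2 CPM and all genes from 20 CPM. Acp5 was at 91.5 against 123 CPM (ratio 0.746, 0.662 to 0.839) and Ctsk at 106 against 159 CPM (0.669, 0.601 to 0.745). In cluster 1 Ctsk was level, at 103 against 99.5 CPM. Of 30 genes of G2 and M phase 0 were higher and 3 lower (−0.32), also a larger part lower than the 2.23% of all genes.

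Lists that were far from the median of all genes in high-mitochondrial against other barcodes were close to level between the libraries, while some single genes named there were not. None of the 55 subunits of oxidative phosphorylation was called (0 higher and 0 lower, median −0.10), and of 79 ribosomal protein genes 1 was higher (−0.21). Malat1 had a ratio of 0.967 (0.958 to 0.975), Neat1 of 0.951 (0.887 to 1.02) and Gm42418 of 1.28. Of 8 nuclear-retained RNAs 1 was higher and 1 lower. In contrast Prtn3 was at 75.4 against 20.3 CPM, Elane at 68.4 against 21.2 CPM and Col1a1 at 44.0 against 21.9 CPM. Most Col1a1 UMIs with vehicle came from few barcodes. With 1 library per group these ratios compare the libraries, and differences between cultures of the same kind were not measured.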

How the data were processed

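Droplet 3′ libraries (10x, v3.1 chemistry, per the labels' protocols) of 1 DHT and 1 vehicle culture were deposited by the authors as gene-by-barcode tables of UMI counts, 1 for each library, with 32285 genes. Cell Ranger 7.0.1 and the builds mm10 and GRCh38 are named, without a role, per the submitters' processing notes. How cells were called, and whether introns or strand were used in counting, is not given in the sources used here. Every deposited barcode was kept. The mitochondrial share was the sum of the 13 mt- genes over all UMIs. Other genes were expressed as CPM over non-mitochondrial UMIs, summed over the barcodes of a set.

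A gene was called at 1.5-fold if it reached 20 CPM in either set, and a list member was measured at 2 CPM. A UMI count of 0 was given a floor of 3 counts over the set. Intervals are exact 95% intervals (Clopper-Pearson for shares, Poisson for counts, conditional binomial for ratios). With 1 library per group no test was made. Barcodes were clustered jointly with scanpy 1.11.5 (2000 variable genes without mitochondrial and interferon genes, 30 components, 15 neighbours, Leiden resolution 0.6). A cluster was named from 18 marker lists where at least 3 markers and 50% of a list were over 2-fold, at least 1 marker was among its 10 leading genes, with fewer of any other list there, and its median reached 2000 non-mitochondrial UMIs. Differences from the study may come from these rebuilt names. Doublets were left in, and Scrublet (expected rate 0.08) called only 5 DHT and 3 vehicle high-mitochondrial barcodes. The libraries had 33 barcode sequences in common, of which 2 and 3 were high-mitochondrial and 0 in both. Gene lengths and transcript ends are from GENCODE M21 (GRCm38), in which 32235 of 32285 gene IDs (99.8%) were found. The scripts were tested on simulated counts.

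The named genes are, for high-mitochondrial against other barcodes, the 12 highest and 12 lowest called the same way in both libraries by the smaller ratio, and for DHT against vehicle the 12 highest and 12 lowest called, without mitochondrial, ribosomal protein, immunoglobulin and predicted genes. To these were added the extremes of each of 20 lists, class markers and a set fixed by name. Members of the interferon list beyond these, such as Bst2 and Ifit1, were named after their values were seen. Some named genes are not reported here. Barcodes and lists were chosen with earlier results of these data known. The bands of the mitochondrial share, the set of shallow barcodes, cluster 1 alone, barcodes above 50% and the removal of shared barcodes were chosen after seeing the data.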

Additional observations from a re-analysis of the deposited data

How the results depend on the processing

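No paired analysis was possible because each group is 1 library. Of the values that answer a comparison, 116 recomputed under other settings stayed within the limits set for them (1.5 times for a count) and 62 moved. Among single classes 46 stayed and 2 moved. The cause of each move was not tested, except that stricter minimums test fewer genes. The share of high-mitochondrial barcodes was 21.1, 16.0, 15.2 and 13.8% with DHT and 18.6, 13.3, 12.4 and 10.99% with vehicle at limits of 5, 15, 20 and 30%. It was 16.5 and 13.7% among barcodes with at least 800 UMIs and 300 genes, and 6.99 and 6.41% among those with at least 2000 non-mitochondrial UMIs, where 78.5 and 88.4% lay in unnamed clusters. At resolution 0.3 that share was 92.2% with vehicle, and at 1.0 it was 91.1% with DHT, with 1.62% high-mitochondrial in the named classes of vehicle.

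For high-mitochondrial against other barcodes, the genes higher and lower were 1176 and 804 (DHT) and 1533 and 602 (vehicle) at a limit of 5%; 267 and 3782, and 815 and 3167, with all UMIs in the total; 957 and 2893, and 1132 and 3095, with TMM factors; 1057 and 2775, and 1231 and 2988, with medians of ratios; and 950 and 959, and 1559 and 983, at 2-fold. With DHT 1289 were higher by the mean of barcode CPM and 1487 at a minimum of 50 CPM. Reweighting to classes and depth bins left 673 and 700 lower.

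For DHT against vehicle within high-mitochondrial barcodes, the genes lower numbered 13, 282, 325 and 505 at limits of 5, 15, 20 and 30%, 616 by the mean of barcode CPM, 83 with TMM factors, 105 with medians of ratios and 921 in barcodes above 50%. With all UMIs in the total 176 were higher and 254 lower. The counts were 166 and 67 at a minimum of 50 CPM, 798 and 424 at 5 CPM, and 155 and 9 at 2-fold, and 176 were higher in cluster 1. Of the interferon list 45 to 55 genes were higher under every setting but the minimum of 50 CPM, where 19 of the 24 measured were.

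Thinned to 500 UMIs, the mean level of osteoclast markers over other barcodes was 1.00 with DHT, and 0.913 thinned to 300. That of neutrophil markers with DHT was 0.182, and 0.194 and 0.160 thinned to 300 and 1000. Depth limits genes below about 2 CPM, which rest on few UMIs in the high-mitochondrial barcodes.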
